A study of Mus musculus with 12 samples.

Results

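The 10 planar cell polarity genes Vangl1, Vangl2, Celsr1, Celsr2, Celsr3, Prickle1, Prickle2, Scrib, Ptk7 and Ror2 were read in 12 mouse pancreatic tumours. They were found as every non-control probe whose gene name on the array equals one of these symbols, which gave 20 of 56605 probes and 10 of 37008 gene names. The set was chosen by gene name, but with the levels of FAKi against vehicle tumours already known, so those group differences are descriptions and carry no test. The tumours came from female C57BL/6 mice aged 8 weeks that bore orthotopic KP tumours, a label that is not spelled out further. One group of 6 received vehicle and the other group of 6 received FAKi, an inhibitor of focal adhesion kinase, at 50 mg/kg by gavage, both for 14 days. Focal adhesion kinase is a tyrosine kinase that relays signals from integrins. Each tumour gave 1 one-colour array of total RNA. Nothing in the labels says more about how the tumours were sampled, so p-values measure the spread between these samples. Each sample was a piece of tissue, so fewer cells of a type and less RNA per cell cannot be told apart.

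Planar cell polarity is the alignment of cells within the plane of a tissue. At the junction between neighbouring cells, Celsr cadherins bind each other, with Vangl and Prickle proteins on one face and Frizzled and Dishevelled on the other. Wnt5a, acting through Ror2 or Ryk, feeds into this system, and its outputs run through small GTPases to the actin cytoskeleton. Vangl proteins, Ptk7 and Scrib are best known for closure of the neural tube and for the directed movement of cells in the embryo.

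A level below is log2 processed signal minus the 75th percentile of log2 signal on the same array, and a difference is the mean of FAKi tumours minus the mean of vehicle tumours on that scale. Levels compare tumours for 1 probe, not probes or genes with each other. A probe was kept where the software called it well above background in 6 or more of the 12 tumours, whatever their group, which held for 16 of the 20 probes and for 9 of the 10 genes. The gene left out was Prickle2. Its brightest probe, well above background in 5 of the 12 tumours, was still used in the correlations among members and with marker scores. Every epithelial, fibroblast and leukocyte marker was well above background on all 12 arrays.

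For Vangl2, Vangl1 and Prickle1, probes to the same gene gave different accounts of the tumours, and Ptk7 was the other member with a higher mean after FAKi. These probes are shown by sequence, as the first 30 of 60 bases in the order the files list them. Positions are on mm9 as the array's designers gave them, and whether a position lies in an exon or an untranslated region was not analysed here. Across all pairs of the 20 probes the longest run of shared bases was 11, between a Celsr1 and a Celsr3 probe.
Vangl2 A_55_P2117764: ttctgccagtcctacttcctcttgctcttg
Vangl2 A_52_P496775: aggattcaaagtggaagcctacctaccagt
Vangl1 A_52_P449417: tgctccaccaagtactctttcctttatcag
Vangl1 A_55_P1974587: cttcgcttacagtctgagacatcagtctaa
Prickle1 A_55_P1954758: taaaggtcccggtgtcaccctgggcttttc
Prickle1 A_55_P2904155: agaagaagaaggctatttccttgcccaccc
Ptk7 A_51_P496381: gcagatgaacaagagcgtttgggagctttt
The Vangl2 probes lie on the minus strand at chr1:173934594-173934653 and chr1:173932856-173932915, so the second is downstream of the first. The Vangl1 probes, also on the minus strand, lie at chr3:101960720-101960779, which is the downstream position, and chr3:101962130-101962189. The Prickle1 pair lies on the minus strand at chr15:93329546-93329605 (downstream) and chr15:93330999-93331058, and the Ptk7 probe lies at chr17:46701644-46701703 on the same strand.

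Among the transmembrane Van Gogh proteins, Vangl2 was the member whose tumours separated by group. On its first probe the vehicle tumours lay at -0.40, -0.32 and -0.20 (lowest, median and highest) and the FAKi tumours at -0.06, 0.54 and 0.94. All 6 FAKi tumours were above all 6 vehicle tumours, and the vehicle tumours were tightly bunched (mean -0.32 ± 0.07, SD, n = 6) while the FAKi tumours were spread (0.50 ± 0.40, SD, n = 6). The difference was 0.82 (SE 0.21), a 1.77-fold higher mean. Across all genes measured on every array, 0.117% had groups that did not overlap with FAKi higher and 0.121% with FAKi lower. Within slides, the difference was 1.03 on slide 1 and 0.29 on slide 4, each of which held 2 vehicle tumours and 1 FAKi tumour. The other slides held 1 group each, so slide and treatment cannot be told apart there. FAKi 2 (0.94) and FAKi 4 (0.88), the highest tumours, lay on slide 3, which held only FAKi tumours.

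The downstream Vangl2 probe did not separate the groups. Vehicle tumours lay at -2.52, -1.68 and -1.01 and FAKi tumours at -1.68, -1.28 and -0.23. The groups overlapped, since 4 of 6 FAKi tumours exceeded the vehicle mean and 1, FAKi 2, was above every vehicle tumour. The difference was 0.44 (SE 0.31), and it was 0.0049 within slide 1 and 0.69 within slide 4. With group means taken out, the Vangl2 probes barely moved together over the 12 tumours (Pearson r = 0.26, Spearman rho = 0.01, permutation p adjusted over 8 probe pairs = 0.718 and 0.974), and r was 0.0044 without FAKi 1 and FAKi 2, the tumours farthest from the median.

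Vangl1, the close relative of Vangl2, differed the other way on its brighter, downstream probe. Vehicle tumours lay at 1.46, 2.10 and 3.04 and FAKi tumours at 1.55, 1.67 and 2.18. The groups overlapped, since vehicle 4 was the lowest of all 12 tumours, while vehicle 5 and vehicle 6 were the highest. All 6 FAKi tumours lay below the vehicle mean, with a difference of -0.42 (SE 0.26). Without vehicle 5, vehicle 6 and FAKi 6 it was -0.21. On the upstream probe vehicle tumours lay at -3.84, -2.68 and -2.04 and FAKi tumours at -4.19, -3.13 and -2.28, a difference of -0.53 (SE 0.39). That upstream difference was -1.67 within slide 1 and 0.81 within slide 4, so its sign turned between slides, while the downstream probe gave -1.05 and -0.33.

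**Figure D1:**
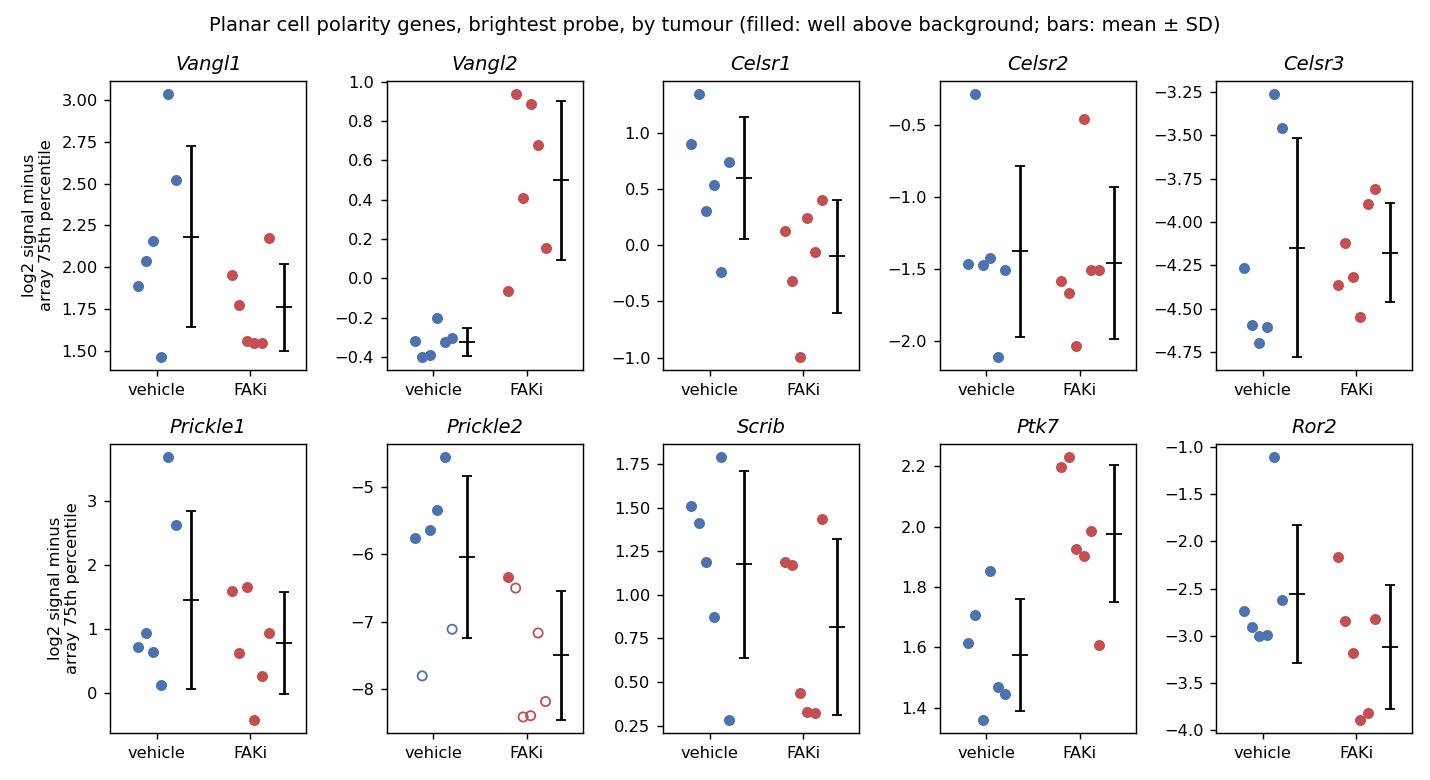
Level of the brightest probe of each of the 10 genes in every tumour (vertical axis, log2 signal minus the array's 75th percentile; scales differ between panels), vehicle in blue and FAKi in red, in order of replicate number. Bars are mean ± SD over 6 tumours, and open points were not well above background. Vangl2 is the panel in which the FAKi tumours (-0.06 to 0.94) lie wholly above the vehicle tumours (-0.40 to -0.20).

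The Celsr cadherins, large atypical cadherins with many passes through the membrane that join neighbouring cells, did not share a direction. Celsr1 (chr15:85729381-85729440, minus strand) lay at -0.24, 0.64 and 1.35 in vehicle tumours and at -1.0, 0.03 and 0.41 in FAKi tumours. All 6 FAKi tumours were below the vehicle mean and 2 were below every vehicle tumour, though vehicle 3 and vehicle 5 lay among the FAKi values. The difference was -0.70 (SE 0.31), a 1.62-fold lower mean. Within slide 1 it was -0.09 and within slide 4 it was -0.92.

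Celsr2 was read by 3 probes that gave differences of -0.08 (SE 0.32), 0.15 (SE 0.36) and 0.07 (SE 0.34), all smaller than their errors. On the brightest, A_52_P360515, vehicle tumours lay at -2.11, -1.47 and -0.29 and FAKi tumours at -2.03, -1.54 and -0.46, so the groups spanned nearly the same range. The other Celsr2 probes tracked each other over tumours with group means taken out (r = 0.88, rho = 0.86, permutation p adjusted over 8 pairs = 0.0085 and 0.079, and r = 0.83 without vehicle 3 and vehicle 6). It was the pair with the highest correlation among the 8 pairs of probes to 1 gene, and for Pearson's r the one pair past the threshold of 0.05.

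Celsr3, known above all from axon guidance, also differed between probes. The downstream probe A_55_P2179587 lay at -4.70, -4.43 and -3.26 in vehicle tumours and at -4.55, -4.22 and -3.81 in FAKi tumours, a difference of -0.03 (SE 0.29). The probe A_55_P2726578 lay at -5.44, -4.73 and -3.70 in vehicle tumours and at -4.32, -4.26 and -3.99 in FAKi tumours. There all 6 FAKi tumours were above the vehicle mean but inside the vehicle range, a difference of 0.46 (SE 0.27), which was 0.37 within slide 1 and -0.23 within slide 4. The remaining Celsr3 probe was well above background in 3 of 6 vehicle tumours and in none of the FAKi tumours, and no fold is given for it.

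Of the cytoplasmic members, Prickle1, a LIM-domain partner of the Vangl proteins, had the widest spread among the kept probes. On its brighter, downstream probe vehicle tumours lay at 0.13, 0.83 and 3.68 and FAKi tumours at -0.41, 0.78 and 1.66. The group medians were close, and the vehicle mean was carried by vehicle 5 at 3.68 and vehicle 6 at 2.62. The difference was -0.68 (SE 0.58), and it was 0.14 without vehicle 5, vehicle 6 and FAKi 6. On the upstream probe the vehicle tumours lay at -1.01, -0.12 and 1.13 and the FAKi tumours at -0.44, -0.17 and 0.43, a difference of 0.05 (SE 0.33). A remaining Prickle1 probe was well above background in 2 vehicle tumours and 1 FAKi tumour.

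Prickle2, the relative of Prickle1, could be followed only in part. One probe was well above background in 4 of 6 vehicle tumours and 1 of 6 FAKi tumours, with measured levels of -7.80 to -4.56 in vehicle and -8.41 to -6.34 in FAKi tumours. Its difference of -1.46 was -0.13 after normexp background correction and 1.12 within slide 4, so neither size nor sign was settled. The other probe was not well above background on any array.

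Scrib, a scaffold that also belongs to the apical-basal polarity machinery, lay at 0.28, 1.30 and 1.79 in vehicle tumours and at 0.32, 0.80 and 1.44 in FAKi tumours. The ranges overlapped almost fully, since vehicle 6 was the lowest of the 12 tumours. The difference was -0.36 (SE 0.30), with -1.17 within slide 1 and 0.34 within slide 4.

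The receptors differed in opposite directions. Ptk7, a catalytically inactive receptor tyrosine kinase that acts as a Wnt co-receptor, lay at 1.36, 1.54 and 1.85 in vehicle tumours and at 1.61, 1.96 and 2.23 in FAKi tumours. All 6 FAKi tumours were above the vehicle mean and 5 were above every vehicle tumour, with FAKi 6 at 1.61 the exception. The difference was 0.40 (SE 0.19), a 1.32-fold higher mean, and it was 0.57 within slide 1 and 0.62 within slide 4. A second Ptk7 probe, designed on a cDNA clone, lay at -5.68, -4.86 and -3.60 in vehicle and at -4.89, -4.39 and -4.21 in FAKi tumours, a difference of 0.23 (SE 0.32), and did not track the first over tumours (r = -0.01, rho = -0.04, permutation p adjusted over 8 pairs = 0.966 and 0.974).

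Ror2 (chr13:53204795-53204854, minus strand), a receptor tyrosine kinase for Wnt5a, lay at -3.0, -2.82 and -1.11 in vehicle tumours and at -3.89, -3.01 and -2.17 in FAKi tumours. Vehicle 5 stood alone at -1.11, with the other vehicle tumours between -3.0 and -2.62. In FAKi tumours 5 of 6 lay below the vehicle mean and 3 lay below every vehicle tumour. The difference was -0.56 (SE 0.38), and it was -0.27 without vehicle 5, vehicle 6 and FAKi 6, -1.77 within slide 1 and 0.59 within slide 4.

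**Figure D2:**
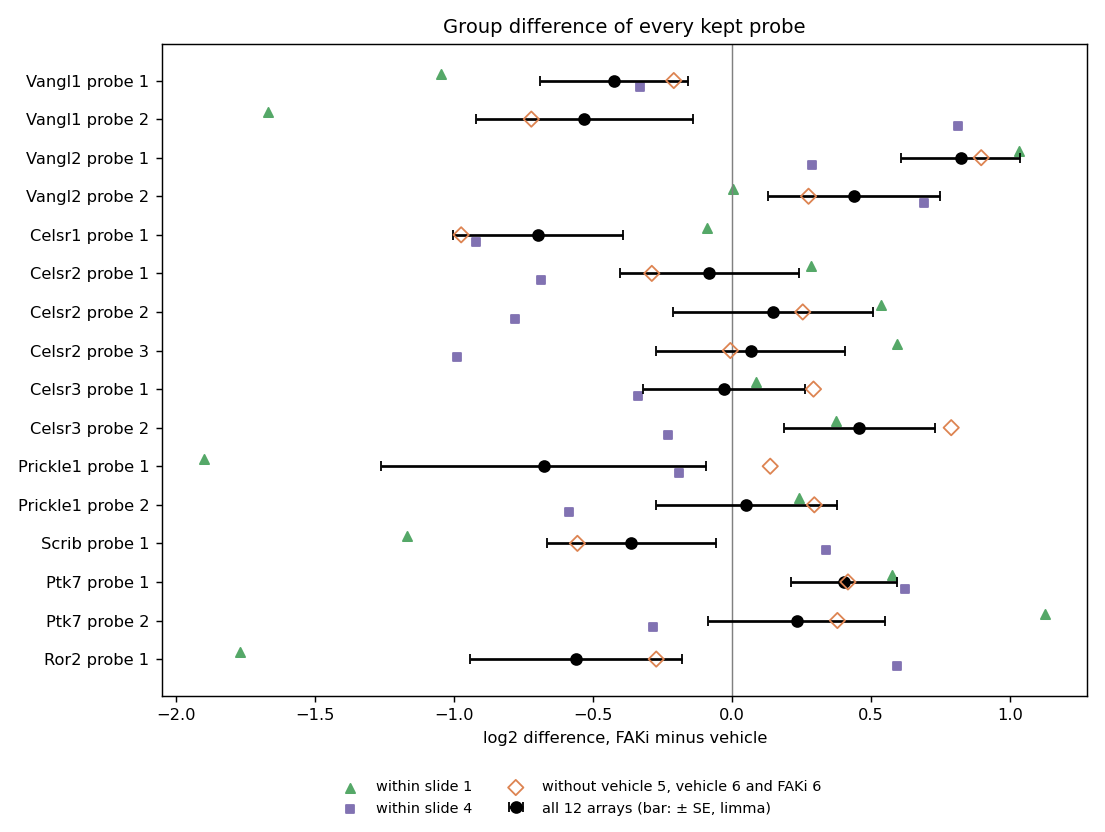
Difference between groups (horizontal axis, log2, FAKi minus vehicle) for each of the 16 kept probes, with limma's SE as the bar, and the same difference within slide 1, within slide 4 and without vehicle 5, vehicle 6 and FAKi 6. The Vangl2 probes, at 0.82 and 0.44, and the first Ptk7 probe, at 0.40, lie above 0 under all 4 readings, though the second Vangl2 probe is at 0.0049 within slide 1. Celsr1, at -0.70, and the first Vangl1 probe, at -0.42, lie below 0 under all 4.

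Over the brightest kept probe of each gene, 2 differences were above 0 (Vangl2 and Ptk7) and 7 below, with a median of -0.36. Over all 27354 genes tested 60.5% of differences were above 0 and the median was 0.08. With all 16 kept probes counted, 8 were above 0 and 8 below, and the probes of 3 of 6 multi-probe genes (Celsr2, Celsr3 and Prickle1) differed in sign. The pooled sign held within slide 1 for 14 of the 16 probes, within slide 4 for 8 and within both for 6. It held under all 23 alternatives for 5 probes, namely both of Vangl2, the downstream one of Vangl1, that of Celsr1 and the first of Ptk7. The alternatives re-use the same arrays, many with only 1 left out, so a kept sign is not independent support. The share of all probes on the array that kept their sign is not given here. The replicate block among these alternatives cannot change a difference, since each replicate number holds 1 tumour of each group. In limma's fit over all genes 0 of 27354 (0%) passed an adjusted p of 0.05, and 4.79% had an unadjusted p under 0.05. The smallest adjusted p was 0.354.

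The arrays differed in how far signal came from the downstream end of transcripts. For 2057 transcripts with probes at least 1000 bases apart, the median of the downstream minus the upstream level was 1.03 in vehicle 5, 0.67 in FAKi 6 and 0.16 in vehicle 6, and it lay between -0.53 and -0.03 in the other tumours. Group means were 0.12 ± 0.47 in the 6 vehicle and -0.14 ± 0.43 in the 6 FAKi tumours (SD; exact two-sided permutation p = 0.364). This measure was added after the data had been seen.

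Some member probes moved with that balance, while the gaps between probes of a member were not tested against it. The gap between the Vangl1 probes was 6.04 in vehicle 5, 6.36 in vehicle 6, 6.21 in FAKi 6 and 5.74 in FAKi 5, against 3.98 to 4.83 in the other 8 tumours. The balance of FAKi 5 was -0.16, so its wide Vangl1 gap did not go with a high balance. The gap between the Prickle1 probes was 3.71 in vehicle 5 and at most 1.72 elsewhere, with 0.51 in FAKi 6. The gap between the Vangl2 probes was -2.35 to -0.69 with the highest in vehicle 1. Over 12 tumours with group means taken out and adjusted over 16 probes, the downstream Vangl1 probe followed the balance (r = 0.79, permutation p = 0.0029, adjusted 0.023; rho = 0.67, p = 0.028, adjusted 0.111). Without vehicle 5 and FAKi 6 its r was 0.44, so the relation rested largely on those tumours. The downstream Celsr3 probe followed it as well (r = 0.80, rho = 0.87, adjusted p = 0.00016 and 0.0013), and its r was 0.83 without those tumours; the unadjusted p of 1e-05 for r is the smallest that these permutations can give. For Ror2 (r = 0.68) and the downstream Prickle1 probe (r = 0.63) the adjusted p was 0.169, and for the first Vangl2 probe r was -0.24. The part of this balance in the group differences was not tested. Without the 3 arrays of highest balance, a reading that was not planned, the difference was 0.90 for the first Vangl2 probe, 0.42 for Ptk7 and -0.97 for Celsr1. It was -0.21 for the downstream Vangl1 probe, -0.27 for Ror2 and 0.14 for the downstream Prickle1 probe. For Scrib it was -0.56, for the brightest Celsr2 probe -0.29 and for the downstream Celsr3 probe 0.29.

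**Figure D3:**
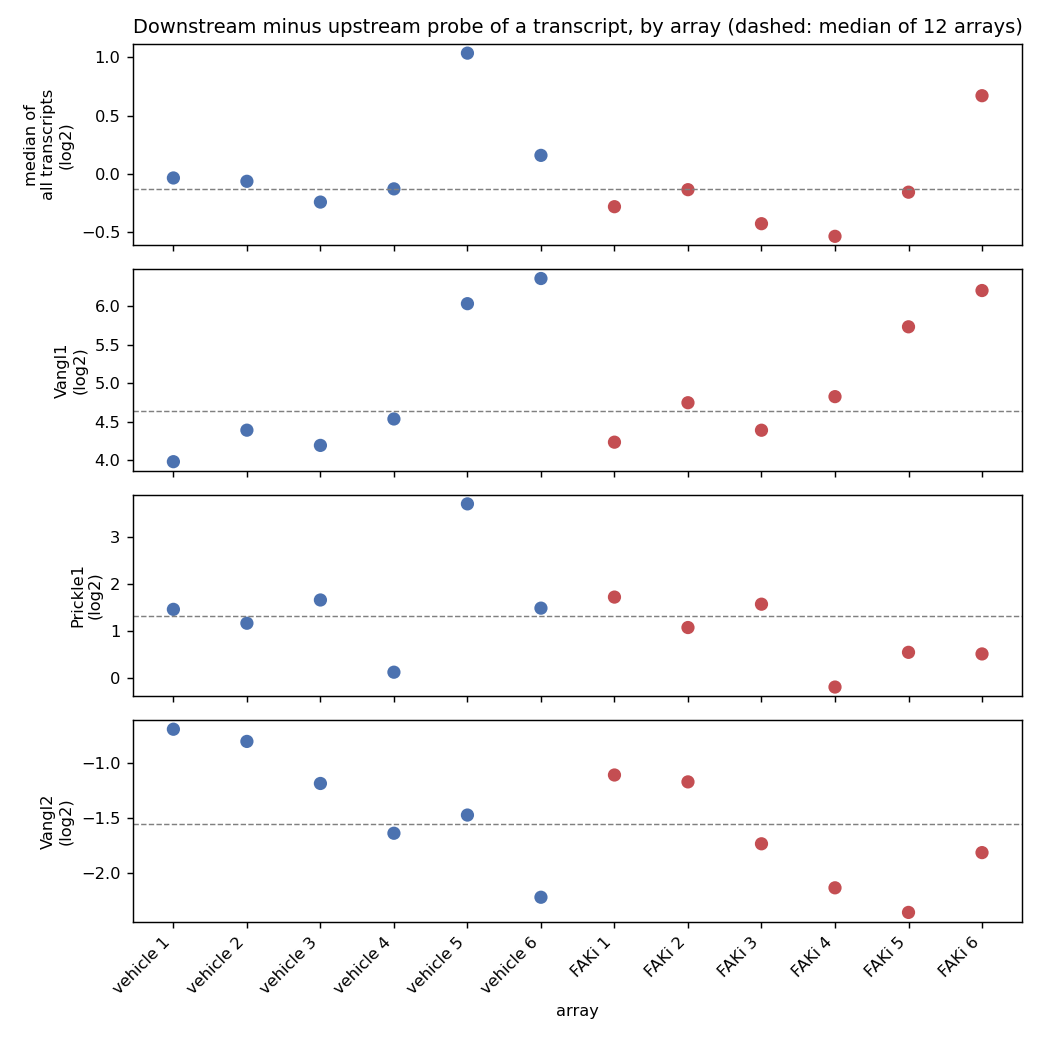
Downstream minus upstream level (vertical axes, log2) in each of the 12 arrays (horizontal axis; vehicle blue, FAKi red) as the median of 2057 transcripts and for the probe pairs of Vangl1, Prickle1 and Vangl2; dashed lines are medians of the 12 arrays. Vehicle 5 (1.03) and FAKi 6 (0.67) are highest in the top panel, and both are among the 4 arrays with a Vangl1 gap above 5.7. FAKi 5 is also among those 4 arrays, at -0.16 in the top panel.

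Across tumours, with group means taken out, the highest positive correlations were mostly among 4 members: Vangl1, Prickle1, Ror2 and Celsr3. These are also the brightest probes with the highest r to the balance of downstream to upstream signal given above (0.79, 0.63, 0.68 and 0.80), and the part of that balance in their correlations was not tested. Prickle1 and Ror2 gave r = 0.82 and rho = 0.81 (permutation p = 0.0016 and 0.0012, both adjusted to 0.056 over 45 pairs), and r was 0.77 without vehicle 5 and vehicle 6. Vangl1 and Prickle1 gave r = 0.83 and rho = 0.78 (adjusted p = 0.056 and 0.114), with r = 0.95 within vehicle and 0.39 within FAKi tumours, and r = 0.60 without vehicle 4 and vehicle 5. Vangl1 and Ror2 gave r = 0.77 and rho = 0.77 (adjusted p = 0.056 and 0.097), and r = 0.61 without vehicle 4 and vehicle 5. Celsr3 and Prickle1 gave r = 0.76 and rho = 0.72 (adjusted p = 0.182 and 0.176), and r = 0.42 without vehicle 5 and vehicle 6. Without vehicle 5, vehicle 6 and FAKi 6, r was 0.74 for Prickle1 and Ror2, 0.54 for Vangl1 and Ror2 and 0.49 for Vangl1 and Prickle1. For Celsr3 and Prickle1 it was then 0.04, and for Vangl1 and Celsr3 -0.11. The highest r without those arrays was that of Scrib and Ror2 (0.84, against 0.64 over 12 tumours), followed by Celsr1 and Celsr2 (0.79). Of the 45 pairs 0 passed 0.05 after adjustment and 8 before it. The pairs with Prickle2 rest on a probe well above background in only 5 of the 12 tumours. Celsr1 and Celsr2 formed another positive pair (r = 0.77, rho = 0.76, adjusted p = 0.122 and 0.114). Vangl2 had r between -0.46 and 0.21 with the other 9 members, and with Prickle1 its r was -0.38 over 12 tumours and -0.79 without vehicle 5, vehicle 6 and FAKi 6. The slides held at most 3 arrays each, too few for a correlation within a slide.

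**Figure D4:**
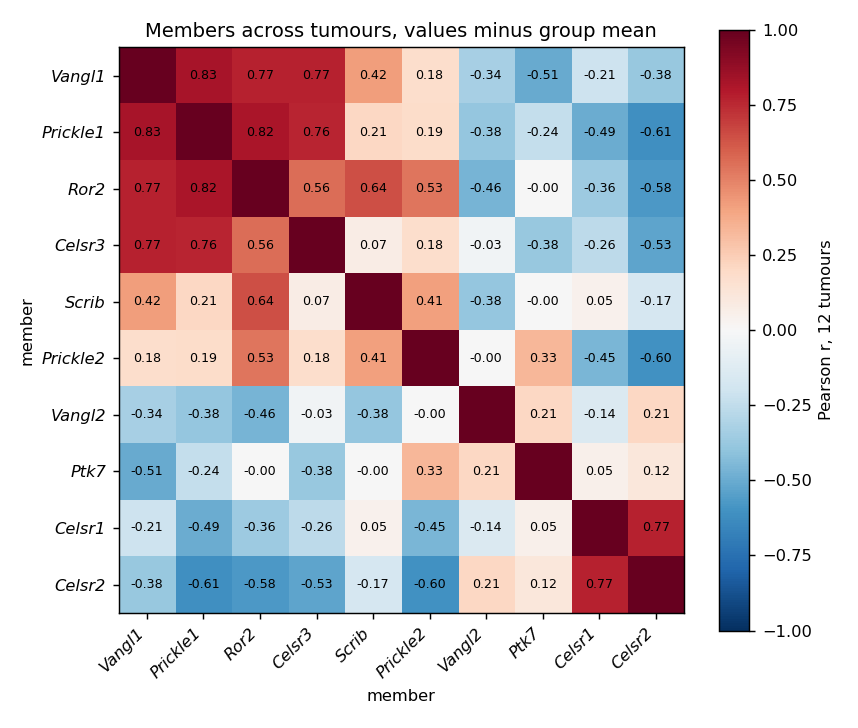
Pearson r over 12 tumours between the brightest probes of the 10 genes after the group mean was taken out (colour and printed value). The Prickle2 probe was well above background in only 5 of the 12 tumours, so its r rest largely on levels near background. The block of Vangl1, Prickle1, Ror2 and Celsr3 at the upper left holds r of 0.56 to 0.83, and Vangl2 has no r above 0.21.

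Epithelial and fibroblast markers were set against the members in 20 relations, of which 0 passed 0.05 after adjustment and 5 before it (smallest adjusted p = 0.124 for r and 0.109 for rho). The most positive r with the fibroblast score was that of Prickle1 (r = 0.78, rho = 0.72, permutation p = 0.010 and 0.019, adjusted 0.124 and 0.127). The most negative r was that of Celsr1 (r = -0.72, rho = -0.68, adjusted p = 0.124 and 0.133), with r = -0.66 without vehicle 1 and vehicle 5. By rho the most negative was Celsr2 (r = -0.59, rho = -0.76, adjusted permutation p = 0.191 and 0.109), with r = -0.71 without the same tumours. With the epithelial score, Ror2 had the most negative r (r = -0.71, rho = -0.73, adjusted p = 0.124 and 0.109), with r = -0.45 without vehicle 2 and vehicle 5.

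Between groups, 0 of 9 marker lists passed after adjustment and 1 before it (exact two-sided permutation test of 6 against 6, smallest p allowed 0.0022). The marker lists too were chosen with earlier results of these data known, which limits how these p-values can be read. The epithelial score was -1.13 to 1.02 in vehicle and -0.55 to 0.24 in FAKi tumours, a difference of -0.20 that was 0.60 within slide 1 and -0.61 within slide 4. The fibroblast difference was 0.03. The lists nearest to the threshold were the acinar enzymes, with a score difference of 0.53 and 7 of 7 genes above 0 (exact p = 0.011, adjusted 0.097), and the endothelial genes, with -0.54 and 6 of 6 below 0 (exact p = 0.095, adjusted 0.429). Acinar scores were -0.67 to 0.28 in vehicle and 0.11 to 0.57 in FAKi tumours, and the difference was 0.82 within slide 1 and 0.02 within slide 4. Endothelial scores were -0.75 to 1.30 and -0.78 to 0.12, with differences of -0.91 and -0.08 within those slides. The other differences were -0.01 for leukocyte, -0.29 for islet, 0.19 for nerve, 0.16 for skeletal muscle and -1.31 for adipocyte genes. Their part in the differences of Vangl2, Ptk7 and Celsr1 was not tested.

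The wider pathway was read from a list of 64 other genes, of which 62 were tested. In it 30 differences were above 0 and 32 below, with a median of -0.02, and none rose or fell past the threshold, 0 genes in either direction (limma with Benjamini-Hochberg adjustment over all genes; smallest adjusted p = 0.763). Before adjustment, 6 genes (9.68%) had a p under 0.05, against 4.79% of all genes tested. The list was chosen with earlier results of these data known, so these shares are a description and not an independent test.

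Among ligands and receptors 2 were above and 7 below 0. Fzd6, a Frizzled receptor of this pathway, had the widest gap of the list. Vehicle tumours lay at -1.69, 0.22 and 1.32 and FAKi tumours at -3.18, -2.36 and -0.63, so all 6 FAKi tumours were below the vehicle mean but the ranges overlapped. The difference was -2.15 (SE 0.53, limma adjusted p = 0.763), with -2.97 within slide 1, -1.11 within slide 4 and -1.48 without vehicle 5, vehicle 6 and FAKi 6. Fzd7, another Frizzled, lay at -2.70, -2.11 and -1.59 in vehicle and at -3.62, -3.06 and -2.51 in FAKi tumours, a difference of -0.98 (SE 0.26, limma adjusted p = 0.855). Wnt5a itself differed by -0.18 (SE 0.57), with its probes between -0.79 and 0.29. Ryk differed by -0.27 (SE 0.26) and Fzd3 by 0.21 (SE 0.45), all at a limma adjusted p of 0.999, and Ror1 was not well above background on enough arrays to be tested.

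Of the Dishevelled proteins and their cytoplasmic partners 6 were above and 9 below 0. Of the Dishevelled proteins themselves, which pass the Frizzled signal into the cell, Dvl1 gave a difference of 0.11 (SE 0.32), Dvl2 -0.16 (SE 0.33) and Dvl3 0.27 (SE 0.26), at a limma adjusted p of 0.999 each. For Dvl3 all 6 FAKi tumours, at 0.16 to 0.67, lay above the vehicle mean but inside the vehicle range of -0.61 to 0.95. Of the other Dishevelled partners, Nkd1, an inhibitor of Dishevelled, lay at -3.01, -2.38 and -0.63 in vehicle and at -4.95, -4.55 and -0.80 in FAKi tumours. Its difference of -1.75 (SE 0.65, limma adjusted p = 0.999) turned to 1.89 within slide 4.

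In the remaining groups, the Fat and Dachsous cadherins with Fjx1, which is not a cadherin, had 5 of 6 differences above 0 (median 0.32). Fjx1, at -0.01, was the one below. The 5 above include Fat3 (0.97), which was well above background in only 1 vehicle tumour and in 5 FAKi tumours. Its difference was -1.57 within slide 1 and -1.0 within slide 4, so its sign was not settled. Differences were above 0 for 2 of 5 ciliary effectors, 3 of 9 actomyosin effectors and 12 of 18 Scribble partners. Intu, a ciliary effector, differed by -1.53 (SE 0.43, limma adjusted p = 0.855) and was well above background in 6 vehicle and 4 FAKi tumours. Dlg3 and Dlg5, scaffolds of the membrane-associated guanylate kinase family, differed by -1.20 (SE 0.49) and -0.67 (SE 0.28), both at a limma adjusted p of 0.999. For Dlg3 the sign turned within slide 4 (0.58), and for Dlg5 the probes ranged from -0.67 to 0.29.

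**Figure D5:**
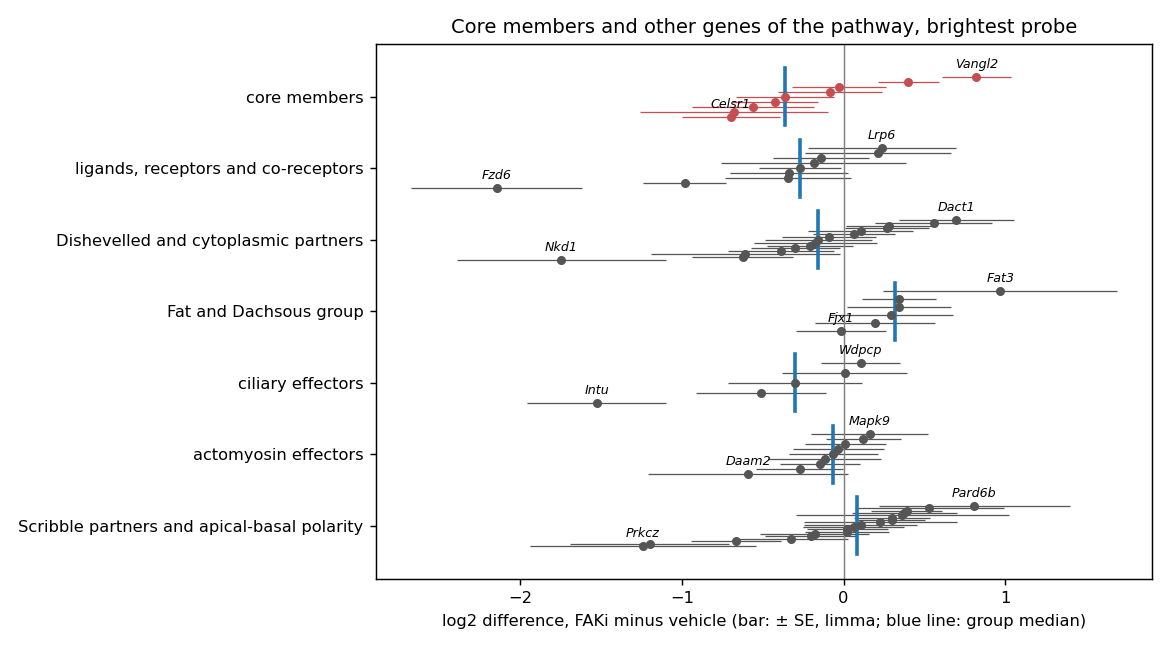
Difference between groups (horizontal axis, log2, FAKi minus vehicle, ± limma SE) for the 9 tested members in red and the 62 tested pathway genes in grey, by role; blue lines are group medians and the lowest and highest gene of each group is named. The members have a median of -0.36 and the pathway genes reach from -2.15 (Fzd6) to 0.97 (Fat3). Fat3 was well above background in 1 vehicle and 5 FAKi tumours, and its difference was below 0 within slide 1 (-1.57) and within slide 4 (-1.0).

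For Vangl2 and Ror2 the most similar genes were sought among 27240 others by Pearson r over the 12 tumours after the group mean was taken out. For Vangl2 they were Ess2 (r = 0.94), Mpp6 (0.90), Mau2 (0.89), Zfp821 (0.88) and Upf1 (0.86). For Ror2 they included Ndst1 (r = 0.96), Sar1a (0.95), Slc10a3 (0.94) and Lats2 (0.94). These are the highest of many correlations over few tumours and are given as a description. Without vehicle 5, vehicle 6 and FAKi 6 the r of these genes was 0.88 to 0.93 for Vangl2 and 0.88 to 0.95 for Ror2. On the Vangl2 probe used the SD was 0.07 in vehicle and 0.40 in FAKi tumours. Its r therefore rests mostly on the FAKi tumours, of which only FAKi 6 was left out, so these values are a weak check for Vangl2.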

How the data were processed

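Tumour RNA was hybridised as Cy5-labelled cRNA to 12 one-colour Agilent arrays. The intensity of each spot was deposited by the authors as Feature Extraction 11.5.1.1 processed red signal, per the file headers, which name mm9. The deposited table of log2 values was made by the authors with limma per the submitters' processing notes; its normalisation is not given in the sources used, and it served as an alternative. The 10 genes and all lists were chosen with earlier results of these data known.

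From the processed signal, log2 was taken, the 75th percentile of each array subtracted and spots of a probe averaged without flagged outliers. Probes well above background on at least 6 of 12 arrays were kept, the brightest probe standing for each of 27354 genes. Genes were named by RefSeq accession for 32994 probes, by current symbol for 10224, by older synonym for 520 and by the array's name for 12867. Pals1 was read under Mpp5.

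FAKi was compared with vehicle by limma 3.58.1 (lmFit, eBayes, Benjamini-Hochberg, R 4.3.3) without covariates, a procedure tested on simulated data. The simulated shifts were larger than any member's difference and the noise was independent between arrays. Recovery of differences of the size reported here was therefore not covered. The SE of a member is that of the fit over kept probes. A marker score was the mean over genes of the level minus the gene's mean of 12 arrays. Scores were compared by exact permutation (924 arrangements), and correlations by 100000 permutations within groups, or all 720 within 1 group. The arrays lay on 5 slides: slide 1 held vehicle 3, vehicle 5 and FAKi 5, slide 4 held vehicle 2, vehicle 6 and FAKi 1, and the other slides held 1 group each. The 75th percentile was 11.82 to 13.88 and the share of spots well above background 66.6% to 76.1%; the number of arrays limits the precision. Named genes were all members, Wnt5a, Ror1, Ryk, Fzd3, Fzd6, Dvl1, Dvl2, Dvl3, the 5 other pathway genes of smallest p, and for Vangl2 and Ror2 the 5 genes of highest r, of which 1 is not reported here. Alternatives covered the normalisation, background, filter, probe choice, slides, replicate number, weights, variance and each array left out.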

Additional observations from a re-analysis of the deposited data

Results flagged for a closer look

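In 52 sets of 6 tumours (the 16 kept probes, the 9 marker scores and the balance of downstream to upstream probes, in each group), the lowest or highest tumour was compared with its nearest neighbour as a share of the range, and 6 sets exceeded Dixon's critical value at the 95% level. Chance alone gives about 1 in 20 such sets.

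On the downstream Vangl2 probe, FAKi 2 stood at -0.23, with the other FAKi tumours between -1.68 and -1.17. On the brightest Celsr2 probe, FAKi 4 stood at -0.46, with the others between -2.03 and -1.50, and on Celsr2 probe A_52_P350148, FAKi 6 stood at -1.34, with the others between -2.39 and -2.10. For Ror2, vehicle 5 stood at -1.11, with the other vehicle tumours between -3.0 and -2.62. In the balance of downstream to upstream probes, vehicle 5 stood at 1.03 (others -0.24 to 0.16) and FAKi 6 at 0.67 (others -0.53 to -0.13). What sets these tumours apart was not tested.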

How the results depend on the processing

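The number of genes called between groups was 0 in the reported fit, 1 (lower) after normexp background correction, 3 (1 higher, 2 lower) with array weights, and 0 to 3 as each array was left out (3 without FAKi 1). At an unadjusted p under 0.05 it was 1311 as reported, 494 with slide as a fixed block, 762 without FAKi 4, 3774 without vehicle 6, 4805 without vehicle 5, vehicle 6 and FAKi 6, and 5032 with array weights. Called pathway genes were 0 under every alternative run. Of the marker lists, 0 passed as reported, 1 (acinar) after quantile normalisation and 1 (acinar) after median centring. It was 0 to 1 as each array was left out (1, endothelial, without vehicle 1 and 1, acinar, without vehicle 6). Of the relations with marker scores, 0 passed as reported, 3 after quantile normalisation and 0 to 1 with arrays left out (1 without FAKi 1). Of the pairs of members, 0 passed as reported and 0 to 4 with arrays left out (2 without vehicle 2, 4 without FAKi 3, 3 without FAKi 6). The pairs that passed without FAKi 3 include Celsr2 and Prickle2, of which the Prickle2 probe was near background in most tumours. Of the single values, 1620 stayed on their side of the threshold or within 1 SD, 24 moved by more than 1 SD, 21 of them within slide 1 or 4, and 17 passed the threshold only under an alternative. The cause was not tested, except that within a slide only 3 arrays remain. Same-numbered tumours did not pair: the correlation of their deviations was 0.17, -0.12, 0.11, 0.11, -0.09 and 0.48 for numbers 1 to 6, and 2 of 6 matched their own number best. A replicate block gave 0 genes called and 1666 at an unadjusted p under 0.05, and 0 pathway genes called. Each number holds 1 tumour of each group, so such a block cannot change the difference of a member probe. With slide as a fixed block the difference of the first Vangl2 probe was 0.66, against 0.82 as reported. That of the downstream Vangl1 probe was -0.69, against -0.42.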
